A study of Mus musculus with 47 samples.

Results

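Genes of cholesterol synthesis, trafficking and efflux were followed through cuprizone demyelination and recovery in mouse brain. The set holds 34 genes, listed by name for their roles: 18 enzymes of the synthesis pathway, 4 genes that control it, 5 of trafficking and storage, 6 of efflux and of the liver X receptors (LXR), and 1 of elimination. All 34 were measured and tested among 14463 genes in the acute corpus callosum and among 17054 genes in the chronic corpus callosum, hippocampus and cortex. The RNA was sequenced from dissected tissue of wild-type C57BL/6 mice in 47 libraries. Cuprizone is a copper chelator that, mixed into the chow, leads to loss of mature oligodendrocytes and their myelin, and myelin is rebuilt after the chow is withdrawn. The acute groups were corpus callosum after 3 weeks of cuprizone (3 libraries), after 5 weeks of cuprizone and 1 week of normal chow (5 + 1, 3 libraries) and from 1 untreated (naive) female of 2 months. By the labels each acute cuprizone group held 1 female and 2 male libraries. The chronic groups were 12 weeks of cuprizone alone, 12 weeks followed by 4, 8 or 12 weeks of normal chow (12 + 4, 12 + 8, 12 + 12), and naive mice of 8 months. In that order they held 2, 2, 3, 2 and 3 libraries of corpus callosum, 3, 3, 2, 2 and 3 of hippocampus, and 3, 3, 3, 2 and 4 of cortex. By the labels each 12 + 12 group was female only, while the other chronic groups held both sexes. In replicate 1 of the hippocampal 12 + 12 group, labelled female, sex-linked genes stood at a mixed level. By the feeding schedule the 12-week mice were younger than the chronic naive mice and than the recovery mice, so that age cannot be told apart from cuprizone or recovery. By the same schedule, begun in adult mice, the acute cuprizone mice were older than the naive female of 2 months, and the 5 + 1 mice older than the 3-week mice. Age cannot be told apart in the acute comparisons either.

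Brain cholesterol is made within the brain, since the blood-brain barrier keeps out the lipoproteins of the blood, and most of it lies in myelin. Cells build it through the mevalonate pathway, whose genes are switched on together by the transcription factor SREBP2, encoded by *Srebf2*, when the membranes of the endoplasmic reticulum hold little sterol. The sensor *Scap* escorts SREBP2 to its activation and *Insig1* holds it back, while *Srebf1* encodes a related factor that acts mostly on fatty acid synthesis. Cholesterol that has been taken up, as when microglia engulf myelin debris, leaves the lysosome through *Lipa*, *Npc2* and *Npc1*, is stored as ester by *Soat1*, and is exported by the transporters *Abca1* and *Abcg1* to apolipoprotein E (*Apoe*). Excess sterol activates the LXR nuclear receptors (*Nr1h3* and *Nr1h2*), whose targets include *Abca1*, *Abcg1*, *Srebf1* and *Mylip*, a ligase that degrades lipoprotein receptors. *Cyp46a1*, a hydroxylase of neurons, turns cholesterol into a form that can leave the brain. The 12 genes of trafficking, storage, efflux, LXR and elimination are called outflow genes below.

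RefSeq promoters of 300 bases (250 before the start of transcription and 50 after it, GRCm38.p6) were matched by symbol for 28 of the 34 members; *Fdps*, *Abcg1*, *Npc1*, *Sqle*, *Fdft1* and *Stard4* were not matched. The NF-Y box CCAAT, read on both strands so that ATTGG also counts, is bound by a factor that works beside SREBP2 at sterol genes. It was found in 14 of 15 synthesis promoters (93.3%, all but *Acat2*), in 3 of 4 control promoters (75%), in 5 of 9 outflow promoters (55.6%) and in 41.1% of the 27025 genes with a promoter of this length. A sterol regulatory element written as TCACNCCAC on either strand was found in 1 synthesis promoter, that of *Hmgcs1*, in 0 control or outflow promoters and in 1.44% of all genes. The LXR direct repeat, spelled exactly as AGGTCA and AGGTCA with any 4 bases between them, on either strand was in 0 of the 28 promoters and in 4 of all genes (0.0148%). A spelling this rare cannot tell members with an LXR repeat from members without one. Looser spellings of the repeat were not searched, and none is marked in the sequences below. These are matches of letters in a window, not binding sites. The 180 bases before the start are printed for 4 synthesis enzymes described by library below, for *Hmgcs1* because it holds the sterol regulatory element, and for *Abca1* as an outflow gene with 0 boxes. Capitals mark the NF-Y box and, in *Hmgcs1*, also the sterol regulatory element. The boxes counted next are those within the 180 bases, while the 300-base promoter of *Hmgcs1* holds 4. *Msmo1*, a methylsterol oxygenase late in the pathway, holds 3 boxes (chr8:64733579-64733758, minus strand), and *Mvd*, which makes isopentenyl diphosphate, holds 2 (chr8:122443423-122443602, minus strand). *Dhcr7*, the reductase of a last step, holds 2 boxes (chr7:143830034-143830213, plus strand, 1 of 3 windows of the gene), as do *Hmgcs1*, the synthase at the entry (chr13:119690171-119690350, plus strand), and *Idi1*, the isomerase of isopentenyl diphosphate (chr13:8885426-8885605, plus strand). The *Abca1* window lies at chr4:53159896-53160075, minus strand.
Msmo1: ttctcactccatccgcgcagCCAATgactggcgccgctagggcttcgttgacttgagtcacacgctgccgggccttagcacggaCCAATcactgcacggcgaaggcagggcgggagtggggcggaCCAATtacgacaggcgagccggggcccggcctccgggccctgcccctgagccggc
Mvd: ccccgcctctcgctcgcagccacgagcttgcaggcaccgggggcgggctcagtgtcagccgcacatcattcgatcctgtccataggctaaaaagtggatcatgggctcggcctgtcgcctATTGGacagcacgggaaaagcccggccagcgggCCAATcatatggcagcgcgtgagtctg
Dhcr7: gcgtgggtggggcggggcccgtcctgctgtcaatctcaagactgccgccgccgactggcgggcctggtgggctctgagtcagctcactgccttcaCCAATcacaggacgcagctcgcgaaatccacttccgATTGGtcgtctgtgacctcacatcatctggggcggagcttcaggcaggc
Hmgcs1: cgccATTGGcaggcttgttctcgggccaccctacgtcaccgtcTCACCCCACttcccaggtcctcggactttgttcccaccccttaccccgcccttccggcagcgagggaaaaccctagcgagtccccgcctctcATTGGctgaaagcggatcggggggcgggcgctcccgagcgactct
Idi1: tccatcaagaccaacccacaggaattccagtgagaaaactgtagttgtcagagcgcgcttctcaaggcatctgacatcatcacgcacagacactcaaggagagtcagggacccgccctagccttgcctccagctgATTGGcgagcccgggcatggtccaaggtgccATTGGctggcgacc
Abca1: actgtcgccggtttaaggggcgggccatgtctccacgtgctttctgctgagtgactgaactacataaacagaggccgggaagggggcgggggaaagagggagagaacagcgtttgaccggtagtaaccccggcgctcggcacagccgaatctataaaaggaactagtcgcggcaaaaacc

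Values are on a log2 scale, on which a difference of 1 is a 2-fold difference. The acute values carry the level of a gene, whereas a chronic value says only how far a library lies above or below a centre that the gene has in common across the 3 regions. No counts were used, so the depth of the libraries is unknown. The labels do not say which libraries come from separate mice, and p-values measure the spread between libraries only. In bulk tissue fewer cells of a type and less RNA per cell cannot be told apart. Sex-linked genes stood at a mixed level in 8 of 13 hippocampal libraries, and 1 acute library went against the sex of its label. Replicate 1 of 5 + 1 weeks stood apart from the other 5 + 1 libraries, and the differences of 5 + 1 against 3 weeks followed the GC content of the genes (Spearman 0.764 across genes, a description). The differences of 5 + 1 weeks against naive followed it as well (Spearman 0.762). In the naive tissue mature oligodendrocyte markers were higher in corpus callosum than in hippocampus and cortex in 10 of 10 genes.

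Most synthesis enzymes had group means below naive under cuprizone in every tissue and means above the 12-week level during recovery, with most single genes short of the threshold. After 3 weeks of cuprizone 17 of 18 synthesis enzymes lay below the naive library, and after 12 weeks 15 of 18 did in corpus callosum, 18 of 18 in hippocampus and 15 of 18 in cortex. Their median log2 differences were −0.28, −0.24, −0.15 and −0.25, beside 0.02, 0.00, −0.01 and −0.01 over all genes tested in the same comparisons. The outflow genes had medians of 0.12, −0.07, −0.06 and −0.07 in the same order. Over the synthesis enzymes as a mean, the 3-week libraries lay at −0.20, −0.27 and −0.33 log2 units from the naive library, and their outflow means at 0.19, 0.19 and 0.22. The difference between the synthesis mean and the outflow mean averaged −0.46 ± 0.08 (SD, n = 3) at 3 weeks, −0.34 ± 0.28 at 5 + 1 weeks (SD, n = 3, from −0.65 to −0.12) and 0 in the naive library by construction. It was −0.18 after 12 weeks in corpus callosum (n = 2), −0.07 ± 0.06 in hippocampus and −0.20 ± 0.08 in cortex (SD, n = 3 each). Single naive libraries ran from −0.07 to 0.07 in corpus callosum, from −0.02 to 0.02 in hippocampus and from −0.15 to 0.19 in cortex. In cortex they overlapped the 12-week libraries, which ran from −0.25 to −0.11. In hippocampus this difference turned positive in recovery, at 0.12 at 12 + 8 weeks and 0.19 at 12 + 12 weeks (n = 2 each). In the corpus callosum the pair of 12 + 12 libraries disagreed, with synthesis means of 0.30 and −0.25 relative to naive.

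**Figure D1:**
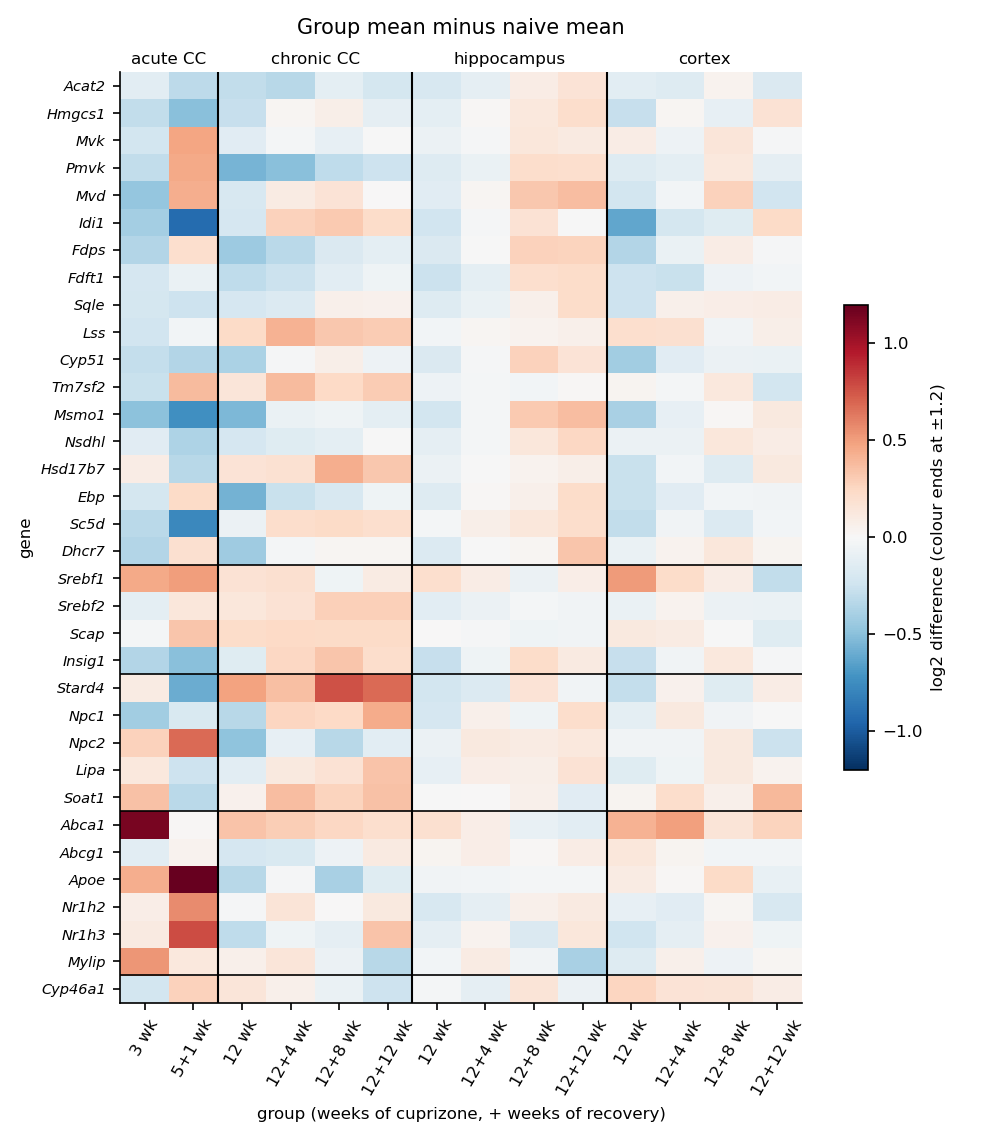
Group mean minus naive mean (log2 units, colour, ends at ±1.2) for the 34 genes in rows, ordered by role, and the cuprizone and recovery groups in columns. The synthesis rows are mostly below zero at 3 and 12 weeks (medians −0.28, −0.24, −0.15 and −0.25) and turn above zero in the late recovery of the hippocampus.

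**Figure D2:**
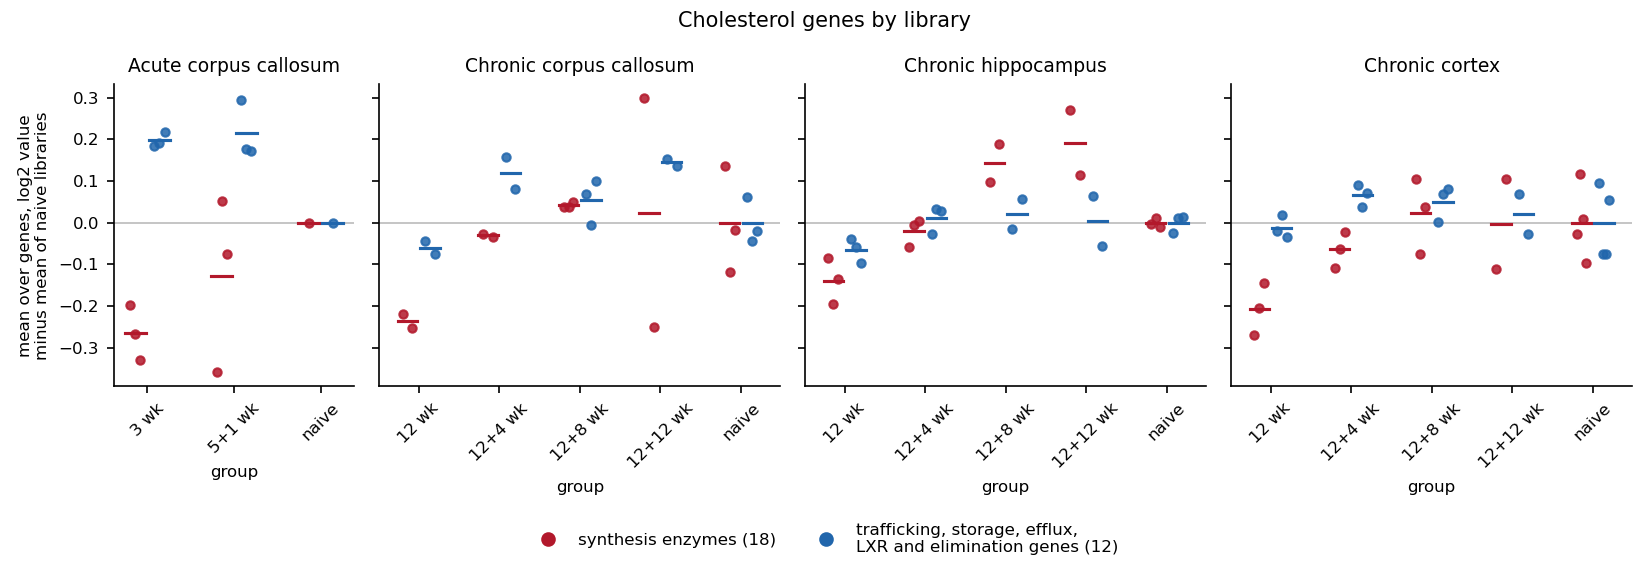
Mean of the 18 synthesis enzymes and of the 12 outflow genes in each library (log2 units, minus the naive mean of the same table), with 1 point a library and bars at the group means. The 3-week libraries have synthesis means of −0.20 to −0.33 and outflow means of 0.19 to 0.22, and the 12 + 12 hippocampal libraries have synthesis means of 0.11 and 0.27.

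The acute comparisons ask how the pathway stands while myelin is being lost (3 weeks) and soon after the chow is withdrawn (5 + 1 weeks). *Abca1*, the main exporter of cholesterol to apolipoproteins, carried the largest outflow difference at 3 weeks. Its log2 values were 10.25, 10.56 and 10.65 at 3 weeks, 9.27, 9.46 and 9.38 at 5 + 1 weeks and 9.35 in the naive library. Every 3-week library lay above every other, and the 5 + 1 libraries lay on both sides of the naive one. The 3-week difference from naive was 1.14 ± 0.23 (standard error, here and below, adjusted p = 0.311), and the 5 + 1 difference from 3 weeks was −1.12 ± 0.16 (adjusted p = 0.145). *Mylip* had 8.18, 8.31 and 8.26 at 3 weeks, 7.80, 7.80 and 7.93 at 5 + 1 weeks and 7.72 in the naive library. Its 3-week libraries were again above all others, with differences of 0.53 ± 0.20 and −0.41 ± 0.14. *Soat1*, which stores cholesterol as ester, had 8.46, 8.66 and 8.68 at 3 weeks, 7.45, 8.23 and 8.07 at 5 + 1 weeks and 8.24 in the naive library, so that all 5 + 1 libraries lay below all 3-week libraries. *Apoe* went the other way, with 15.07, 14.79 and 14.86 at 3 weeks, 16.55, 15.27 and 15.85 at 5 + 1 weeks and 14.47 in the naive library. The 3 groups did not overlap, and its difference from naive was 1.42 ± 0.44 at 5 + 1 weeks (adjusted p = 0.611). Without replicate 1 of 5 + 1 weeks the *Apoe* difference was 1.09 ± 0.26. *Npc2*, a lysosomal sterol carrier, had 10.54, 10.36 and 10.43 at 3 weeks, 11.04, 10.59 and 10.93 at 5 + 1 weeks and 10.17 in the naive library, all 6 cuprizone libraries being above it.

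Among the synthesis enzymes *Mvd* had 9.05, 8.39 and 8.34 at 5 + 1 weeks, against 7.83, 7.71 and 7.54 at 3 weeks, and 8.16 in the naive library. *Fdps*, the synthase of farnesyl diphosphate, had 9.63, 9.79 and 9.82 at 5 + 1 weeks, against 9.36, 9.08 and 9.14 at 3 weeks, and 9.54 in the naive library. *Dhcr7* had 9.23, 9.05 and 8.97 at 5 + 1 weeks, against 8.68, 8.49 and 8.44 at 3 weeks, and 8.89 in the naive library. In these 3 genes every 5 + 1 library exceeded every 3-week library, as in 7 of the 18 enzymes, beside 20.9% of all genes. In *Hsd17b7* every one lay below, and in the other 10 the groups overlapped. *Idi1* was among the 10: it had 7.37, 9.14 and 9.13 at 5 + 1 weeks, against 9.18, 9.05 and 8.96 at 3 weeks, and 9.47 in the naive library. *Msmo1* had 8.36, 10.09 and 10.05 at 5 + 1 weeks, against 9.93, 9.75 and 9.56 at 3 weeks, and 10.23 in the naive library. In *Idi1* and *Msmo1* replicate 1 of 5 + 1 weeks was the lowest of the 7 libraries.

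**Figure D3:**
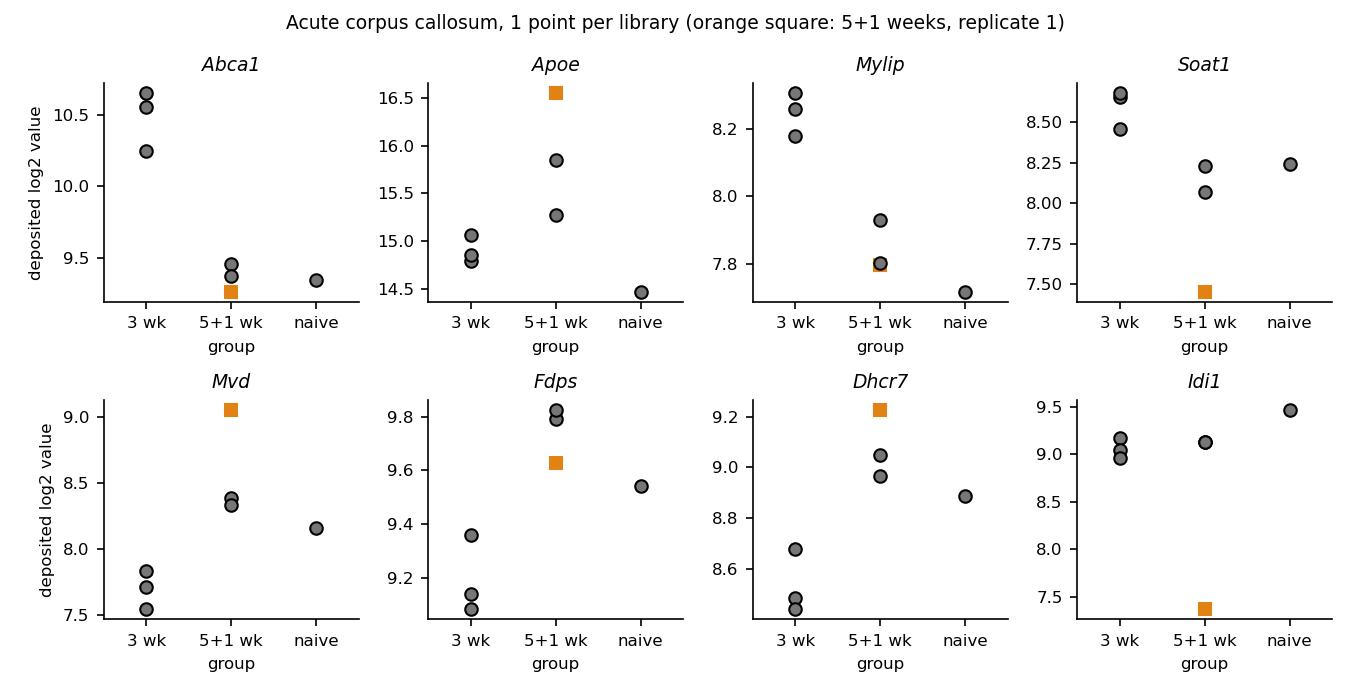
Deposited log2 value of selected members in each acute library, 1 point a library, with the 3-week, 5 + 1-week and naive groups side by side and 5 + 1 replicate 1 as a square. *Abca1* stands between 10.25 and 10.65 at 3 weeks, against 9.35 in the naive library, while *Mvd* stands between 7.54 and 7.83 at 3 weeks and at 8.34 or above at 5 + 1 weeks.

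By limma over all 14463 genes, adjusted after Benjamini and Hochberg with a threshold of 0.05, 0 of the 34 members passed in any of the 3 acute comparisons. The share of all genes called was 0% for 3 weeks against naive, 0.00691% for 5 + 1 weeks against naive and 0% for 5 + 1 against 3 weeks. At an unadjusted p below 0.05 there were 2, 3 and 15 members, and 663, 821 and 3496 genes in all. The comparisons with naive rest on 1 naive library, whose spread was taken to be that of the other groups. Without replicate 1 of 5 + 1 weeks, 11 members passed for 5 + 1 against 3 weeks, where 11.7% of all genes did. Replicate 1 was the only female 5 + 1 library by label and by sex-linked genes. Without it the 5 + 1 group was male only, while 3-week replicates 2 and 3 were female by sex-linked genes. Sex therefore cannot be told apart from recovery in that comparison. *Mvd* (0.67 ± 0.11, adjusted p = 0.025), *Fdps*, *Pmvk*, *Tm7sf2*, *Dhcr7*, *Ebp* and *Fdft1* rose, as did *Cyp46a1*. *Abca1* (−1.07 ± 0.13, adjusted p = 0.0216), *Soat1* and *Mylip* fell. The synthesis enzymes were then above zero in 15 of 18 genes with a median of 0.28, beside 9 of 18 and a median of 0.04 with all libraries. For 3 weeks against naive *Abca1* alone of the members passed without that library (adjusted p = 0.0372, 1.27% of all genes called), and for 5 + 1 weeks against naive 0 did (0.283%). Limma's library weights called 13 members for 5 + 1 against 3 weeks. The acute libraries were assigned by the column headers of the study's own table of the same values, with which the order of the sample labels disagrees. Sex-linked genes went against the labelled sex in 1 of 7 libraries by the headers and in 5 of 7 by the label order. In label order the 3-week difference from naive was −0.09 in *Abca1* and the 5 + 1 difference from 3 weeks was −0.20 in *Apoe*. Mature oligodendrocyte markers averaged −1.51, −3.26 and −2.45 at 3 weeks and 0.04, −0.20 and 0.19 at 5 + 1 weeks relative to naive. Activated microglia markers averaged 2.34, 2.34 and 2.29 at 3 weeks and 1.09, 1.59 and 1.95 at 5 + 1 weeks. The part of these cell types in the differences was not tested.

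After 12 weeks of cuprizone 6 of 34 members passed in the corpus callosum, a share no larger than the 19.8% of all genes called. They were 3 synthesis enzymes and *Npc2* below naive, and *Stard4* and *Scap* above it. *Ebp*, a sterol isomerase, had −0.25 and −0.19 at 12 weeks, against 0.41, 0.25 and 0.37 in naive tissue, and fell by 0.56 ± 0.09 (adjusted p = 0.00411). *Pmvk*, a kinase of the mevalonate steps, had −0.01 and −0.17 at 12 weeks, against 0.55, 0.25 and 0.59 in naive tissue (−0.55 ± 0.12, adjusted p = 0.00971). *Msmo1* had −0.30 and −0.36 at 12 weeks, against 0.40, 0.02 and 0.20 in naive tissue (−0.54 ± 0.16, adjusted p = 0.0397). In all 3 enzymes the 12-week libraries lay below every naive library, as they did in 11 of the 18 enzymes, beside 25.1% of all genes. *Npc2* had −0.08 and −0.18 at 12 weeks, against 0.63, 0.19 and 0.25 in naive tissue (−0.49 ± 0.15, adjusted p = 0.0431). *Stard4*, which carries cholesterol between membranes through the cytosol, had 0.36 and 0.40 at 12 weeks, against −0.14, 0.03 and −0.20 in naive tissue (0.48 ± 0.13, adjusted p = 0.0271). *Scap* had 0.10 and 0.07 at 12 weeks, against −0.12, −0.15 and −0.12 in naive tissue (0.22 ± 0.06, adjusted p = 0.0328). *Stard4* and *Scap* thus rose with groups that did not overlap. The 3 of 18 enzymes called lower stand beside 9.77% of all genes. Short of the threshold, *Fdps* and *Dhcr7* differed by −0.43 and −0.43, and *Abca1* by 0.35.

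Nuclear-retained RNAs averaged 0.87 to 1.34 above naive in every chronic cuprizone library of the corpus callosum, and the differences at 12 weeks followed transcript length (Spearman 0.402 across genes). Mature oligodendrocyte markers averaged −1.22 and −1.21 at 12 weeks, 7 of 10 being lower. The part of both in the member values was not tested, and a correction for length and GC content left 4 members called, all lower. The count of 6 dropped to 1 or 2 without either 12-week library or without naive replicate 1 or 3, to 3 without 12 + 8 replicate 1, and went up to 12 without either 12 + 12 library.

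During recovery the group means of most synthesis enzymes of the corpus callosum lay above their 12-week level, but 0 members passed and 1 of the 12 + 12 libraries did not share it. Above the 12-week mean were 17 of 18 enzymes at 12 + 4 weeks, 18 at 12 + 8 weeks and 18 at 12 + 12 weeks, with medians of 0.21, 0.27 and 0.25 and medians of 0.00, −0.01 and −0.01 over all genes. Taken singly, the 12 + 4 and 12 + 8 libraries had 16 or 17 enzymes above the 12-week mean, with medians of 0.20 to 0.30. The pair of 12 + 12 libraries had 18 in replicate 1 and 8 in replicate 2, with medians of 0.53 and −0.05, so that without replicate 1 the 12 + 12 pattern was lost. At 12 + 8 weeks 14 of 18 enzymes had every library above both 12-week libraries, beside 14.3% of all genes. *Ebp* had 0.19 and −0.04 at 12 + 4 weeks, 0.11, 0.25 and 0.10 at 12 + 8 weeks and 0.35 and 0.24 at 12 + 12 weeks. Its 12 + 12 difference from 12 weeks was 0.51 ± 0.10 (adjusted p = 0.0611), all libraries being above those of 12 weeks. *Npc1*, the lysosomal membrane exporter of cholesterol, had 0.71 and 0.61 at 12 + 12 weeks, against −0.15 and −0.10 at 12 weeks (0.78 ± 0.18, adjusted p = 0.0877). *Msmo1* showed how far the pair of 12 + 12 libraries diverged, with 0.37 and −0.19. The shares of all genes called against 12 weeks were 0% at 12 + 4, 0% at 12 + 8 and 0.446% at 12 + 12 weeks, and 6, 10 and 13 members had an unadjusted p below 0.05, among 2006, 1369 and 2840 genes. Without naive replicate 1, which enters through the shared spread, 3 members were called higher at 12 + 12 weeks.

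Against naive tissue the members called in the recovered corpus callosum were 3, 4 and 3 of 34 at 12 + 4, 12 + 8 and 12 + 12 weeks, a smaller share than the 16.4%, 20.7% and 18.4% of all genes called. *Scap*, *Soat1* and *Stard4* were higher than naive in more than 1 of these groups. *Stard4* had 0.27 and 0.26 at 12 + 4 weeks, 0.64, 0.66 and 0.70 at 12 + 8 weeks and 0.82 and 0.33 at 12 + 12 weeks. It was above naive at 12 + 8 weeks (0.77 ± 0.11, adjusted p = 0.00212) and at 12 + 12 weeks (0.68 ± 0.13, adjusted p = 0.00818). *Soat1* had 0.22 and 0.06 at 12 + 4 weeks, 0.07, −0.02 and 0.04 at 12 + 8 weeks and 0.06 and 0.18 at 12 + 12 weeks, against −0.24, −0.27 and −0.19 in naive tissue. It was higher than naive in all 3 recovery groups, by 0.37, 0.26 and 0.35, while its 12-week libraries, at −0.21 and −0.16, overlapped the naive ones. *Scap* stood between 0.09 and 0.11 in all 7 recovery libraries and passed in each group. *Srebf2* also passed at 12 + 8 weeks (0.29 ± 0.08, adjusted p = 0.0344), and of the 18 enzymes only *Pmvk* passed, lower at 12 + 4 weeks (−0.50 ± 0.12, adjusted p = 0.0173). The differences from naive followed transcript length (Spearman 0.354, 0.459 and 0.35 across genes). Fitting only the compared groups left 0, 2 and 0 members called, and a correction for length and GC content left 1 at 12 + 8 weeks. Leaving out 1 library moved the first count to 0 without 12 + 4 replicate 1, to 1 without 12 + 4 replicate 2 and to 6 without either 12 + 12 library. The second was 1 without 12 + 8 replicate 1 and 2 without naive replicate 1, and the third 5 and 6 without 12 + 12 replicate 1 and 2.

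In the hippocampus 12 of 18 synthesis enzymes were higher at 12 + 12 weeks than at 12 weeks, with *Npc1* and *Nr1h3*, and 0 members were lower. *Msmo1* had 0.36 and 0.19 at 12 + 12 weeks, against −0.22, −0.40 and −0.32 at 12 weeks, and rose by 0.59 ± 0.08 (adjusted p = 0.00141). *Fdft1*, the squalene synthase that commits the pathway to sterols, had 0.30 and 0.19 at 12 + 12 weeks, against −0.20, −0.28 and −0.23 at 12 weeks (0.48 ± 0.06, adjusted p = 0.00107). *Mvd* had 0.44 and 0.16 at 12 + 12 weeks, against −0.11, −0.30 and −0.20 at 12 weeks (0.50 ± 0.09, adjusted p = 0.00634). The 12 + 12 libraries exceeded every 12-week library in these 3 genes and in 15 of the 18 enzymes, beside 22.3% of all genes. *Dhcr7* had 0.37 and 0.26 at 12 + 12 weeks, against −0.16, −0.17 and −0.22 at 12 weeks (0.50 ± 0.09). *Fdps* had 0.46 and 0.28 at 12 + 12 weeks, against −0.05, −0.13 and −0.05 at 12 weeks (0.45 ± 0.07). *Ebp*, *Sqle*, *Acat2*, *Pmvk*, *Nsdhl*, *Cyp51* and *Hmgcs1* rose by 0.33 to 0.37. The enzymes that did not pass were *Mvk*, *Idi1*, *Lss*, *Tm7sf2*, *Hsd17b7* and *Sc5d*, all with a difference above zero. *Npc1* had 0.07 and −0.19 at 12 + 12 weeks, against −0.41, −0.52 and −0.49 at 12 weeks (0.41 ± 0.09, adjusted p = 0.0131). *Nr1h3*, which encodes the receptor LXR alpha, had 0.15 and 0.18 at 12 + 12 weeks, against −0.13, −0.08 and −0.02 at 12 weeks (0.24 ± 0.06, adjusted p = 0.0215). The LXR targets *Abca1* and *Mylip* did not rise with it, with differences of −0.32 ± 0.10 and −0.36 ± 0.11 that did not pass. The targets *Abcg1* and *Srebf1* did not pass either. Their means were −0.12 and 0.04 at 12 weeks, against −0.06 and −0.08 at 12 + 12 weeks.

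Of the 34 members 14 were called, beside 13.2% of all genes, and the 12 enzymes among 18 compare with 6.53% of all genes called higher. The median over the enzymes was 0.36 and over the outflow genes 0.12, beside 0.00 over all genes. At 12 + 8 weeks *Msmo1* (0.20 and 0.24), *Fdft1* (0.19 and 0.27) and *Fdps* (0.40 and 0.35) were already above their 12-week level, by 0.54, 0.46 and 0.46 (adjusted p = 0.0398 for each), where 0.194% of all genes were called. At 12 + 4 weeks 0 members and 0% of all genes were called, with 7 members and 1769 genes at an unadjusted p below 0.05. The enzymes were nevertheless above the 12-week mean in 18 of 18 genes, with a median of 0.12. *Msmo1* had −0.22, −0.06 and −0.07 at 12 + 4 weeks, below both 12 + 8 libraries in every library.

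**Figure D4:**
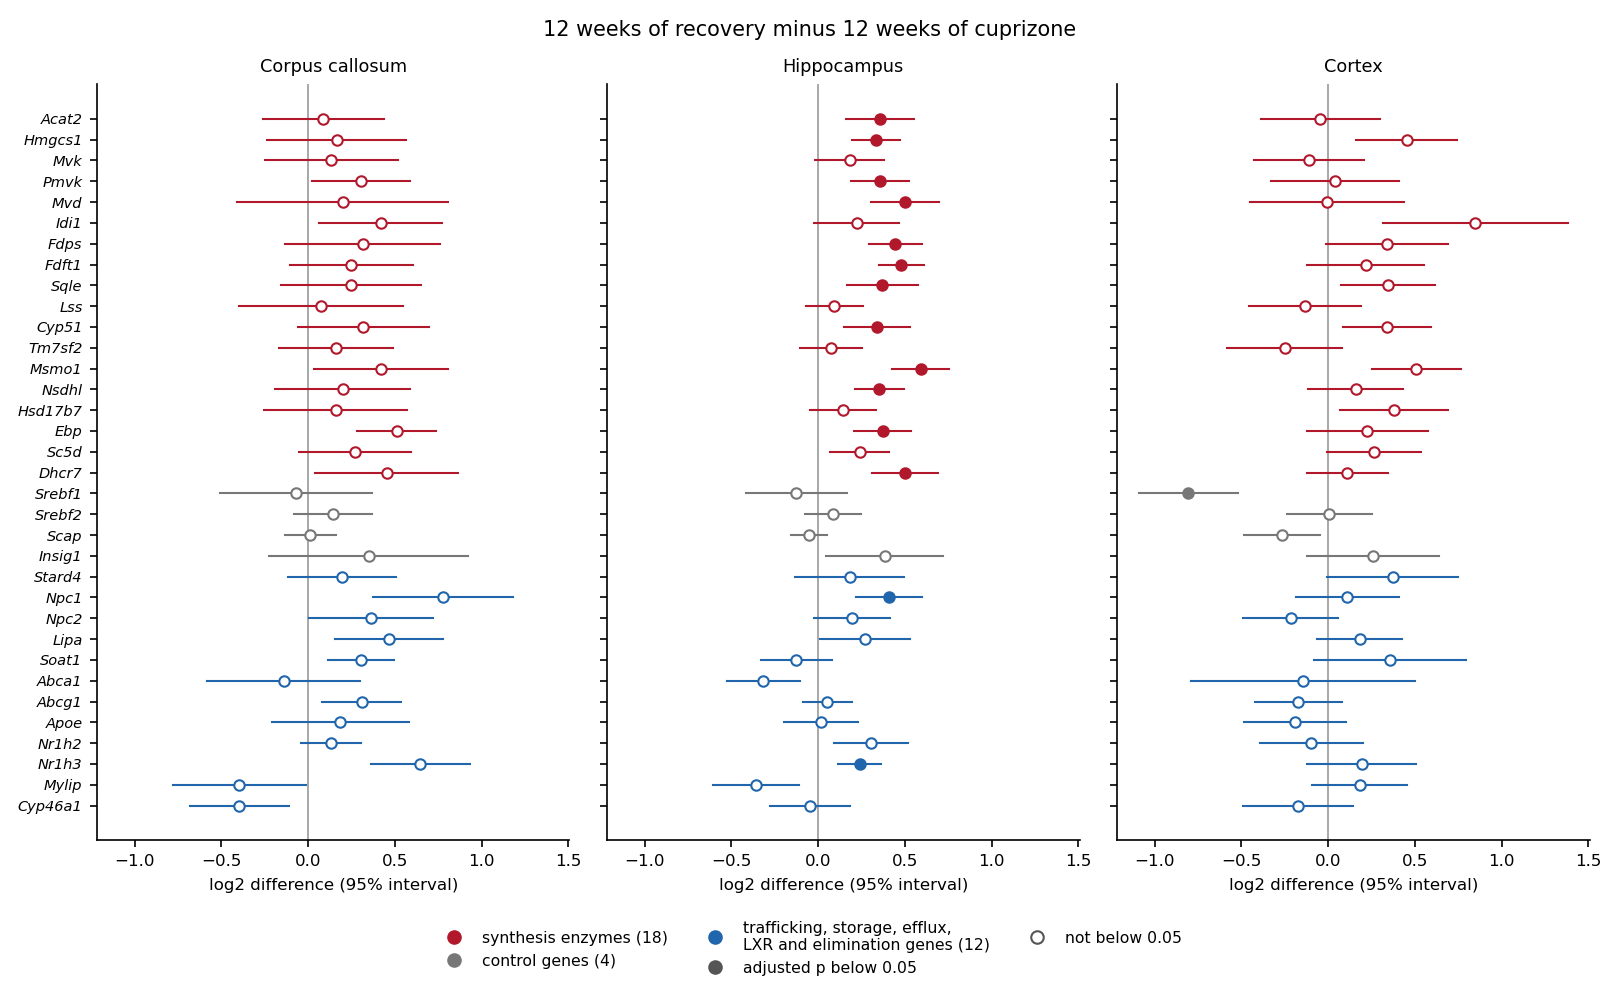
Difference of 12 + 12 weeks minus 12 weeks (log2 units, with 95% intervals) for the 34 members in corpus callosum, hippocampus and cortex, filled where the adjusted p is below 0.05. In the hippocampus 14 points are filled and all 18 enzymes lie right of zero, in the corpus callosum 0 points are filled, and in the cortex *Srebf1* alone is filled, at −0.81.

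The 12 + 12 hippocampal libraries also differed in tissue markers. Mature oligodendrocyte markers averaged 0.91 and 0.49 relative to naive at 12 + 12 weeks, against −0.25, −0.79 and −0.62 at 12 weeks, and 10 of 10 were higher. Hippocampus markers, genes of its neurons, averaged −2.20 and −0.91 at 12 + 12 weeks, against 0.08, 0.37 and 0.31 at 12 weeks, and 4 of 5 were lower. Markers of striatum averaged 1.25 and −0.29 at 12 + 12 weeks, against 0.08, −0.26 and −0.17 at 12 weeks, and both groups contained libraries of mixed sex-linked genes. Across genes the differences of 12 + 12 against 12 weeks in hippocampus followed transcript length (Spearman −0.257) and GC content (0.231). The part of these marker differences and trends in the enzyme values was not tested. With a correction for length and GC content 14 members were called higher. Without 12 + 12 replicate 1, which has the lowest hippocampal markers, 4 members were called higher and 1 lower. Without the mixed libraries 1 library a group was left and 0 members were called, although 17 of 18 enzymes were above zero with a median of 0.34, and *Msmo1* differed by 0.60. Fitting only the compared groups, or all 40 chronic libraries together, called 3. At 12 + 8 weeks the call of all 3 genes was lost without 12-week replicate 2 or 3, without 12 + 4 replicate 2, without 12 + 8 replicate 2 or without any naive library. It became 1 without 12 + 4 replicate 1, 5 without 12-week replicate 1 or either 12 + 12 library, and 6 without 12 + 8 replicate 1.

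Between 12 weeks and naive the differences in the hippocampus were small. Across all genes they followed GC content (Spearman −0.313) and transcript length (0.162). All 18 enzymes were below naive at 12 weeks on their means, and in 12 of 18 every 12-week library lay below every naive one, beside 10.9% of all genes. *Fdft1* had −0.20, −0.28 and −0.23 at 12 weeks, against 0.04, 0.00 and 0.03 in naive tissue (−0.26 ± 0.05, adjusted p = 0.213). *Msmo1* had −0.22, −0.40 and −0.32 at 12 weeks, against −0.07, −0.06 and −0.15 in naive tissue (−0.23 ± 0.07, adjusted p = 0.312). By limma 0 members and 0% of all genes passed, with 11 members and 1741 genes at an unadjusted p below 0.05. Against naive, *Msmo1* was higher at 12 + 12 weeks (0.37 ± 0.08, adjusted p = 0.0337), the only member called there, beside 2.22% of all genes, with 17 of 18 enzymes above zero and a median of 0.21. That call was lost without 12-week replicate 3, 12 + 4 replicate 2, 12 + 12 replicate 1 or any naive library, became 2 members without 12-week replicate 1 or 12 + 4 replicate 1, and 4 without 12 + 12 replicate 2. At 12 + 4 and 12 + 8 weeks 0 members passed against naive, beside 0.00586% and 0% of all genes, with 1 and 7 members at an unadjusted p below 0.05.

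In the cortex the values of the enzymes leaned the same way at 12 weeks, and *Srebf1* was the one member that passed a test, in recovery. *Idi1* had −1.41, −1.99 and −1.83 at 12 weeks, against −1.23, −0.94, −1.18 and −1.12 in naive tissue (−0.62 ± 0.21, adjusted p = 0.424). *Cyp51*, the lanosterol demethylase, had −0.43, −0.26 and −0.24 at 12 weeks, against 0.12, 0.25, 0.04 and 0.05 in naive tissue (−0.42 ± 0.10, adjusted p = 0.219). In both genes, and in 10 of 18 enzymes, all 12-week libraries lay below all naive libraries, beside 7.66% of all genes. *Srebf1* had 0.19, 0.33 and 0.14 at 12 weeks, 0.00, −0.17 and −0.04 at 12 + 4 weeks, −0.37, −0.07 and −0.16 at 12 + 8 weeks and −0.60 and −0.58 at 12 + 12 weeks. Its naive libraries had −0.07, −0.23, −0.36 and −0.50, so that the 12-week libraries were above all of them and the 12 + 12 libraries below all of them. The 12 + 12 group fell by 0.81 ± 0.13 relative to 12 weeks (adjusted p = 0.04), and the 12-week difference from naive was 0.51 ± 0.11 (adjusted p = 0.175). The *Srebf1* call was lost without any one library of 12, 12 + 4 or 12 + 12 weeks, and without naive replicate 2. It was also lost with sex in the fit, the 12 + 12 group being female only. The differences of 12 + 12 against 12 weeks in cortex followed GC content (Spearman −0.413 across genes) and transcript length (0.242), and the part of this in *Srebf1* was not tested. The *Idi1* values at 12 + 12 weeks were −1.13 and −0.66, a difference of 0.85 ± 0.25 from 12 weeks (adjusted p = 0.177).

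For 12 weeks against naive in cortex 0 members passed, beside 0.0645% of all genes, and 9 members and 1576 genes had an unadjusted p below 0.05. Against 12 weeks, 0, 0 and 1 members passed at 12 + 4, 12 + 8 and 12 + 12 weeks, beside 0.0293%, 0.0176% and 0.0762% of all genes. Against naive, 0 members and 0%, 0% and 0% of all genes did. Enzymes above their 12-week mean numbered 13, 17 and 13 of 18, with medians of 0.16, 0.21 and 0.22. Activated microglia markers averaged 0.76, 0.60 and 0.80 above naive at 12 weeks and mature oligodendrocyte markers −0.20, −0.28 and −0.32. Their part in the member values was not tested.

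Whether the regions responded differently was tested on the difference of their effects. *Stard4* was the one member whose 12-week effect differed between regions: it was 0.48 ± 0.13 in corpus callosum, against −0.29 ± 0.15 in cortex. In cortex its values were 0.11, 0.00 and −0.02 at 12 weeks, against 0.58, 0.13, 0.11 and 0.46 in naive tissue, the opposite direction to the corpus callosum. The difference of effects was 0.77 ± 0.21 (adjusted p = 0.046), 1 of 34 members, a share close to the 2.4% of all genes called. The differences of effect in this comparison followed transcript length (Spearman 0.326 across genes). The *Stard4* call was lost with no filter, with sex in the fit and with a correction for length and GC content. It was lost without any of 15 single libraries: in corpus callosum both of 12 weeks, both of 12 + 4 weeks, 12 + 8 replicate 1 and naive replicates 1 and 3, and in cortex all of 12 and of 12 + 4 weeks and naive replicates 1 and 4. Between corpus callosum and hippocampus *Stard4* differed by 0.70 ± 0.21 (adjusted p = 0.0858), and 0 members passed, beside 1.54% of all genes, with 6 members at an unadjusted p below 0.05. Between hippocampus and cortex 0 members and 0% of all genes passed, with 0 members and 1436 genes at an unadjusted p below 0.05. For recovery, 12 + 12 against 12 weeks, *Abcg1*, which exports cholesterol to lipoprotein particles, differed between corpus callosum and cortex. In this comparison the differences of effect followed GC content (Spearman 0.337 across genes) and transcript length (−0.227). The *Abcg1* effect was 0.31 ± 0.10 in corpus callosum, against −0.17 ± 0.12 in cortex, a difference of 0.48 ± 0.13 (adjusted p = 0.0375, 3.88% of all genes called). That call was lost without either 12-week library of the corpus callosum, 12-week replicate 1 or 3 of the cortex or 12 + 12 replicate 2 of the cortex, while 2 to 4 members were called without any of 8 others (12 + 8 replicates 2 and 3, 12 + 12 replicate 2 and naive replicates 1 and 3 of corpus callosum, 12 + 8 replicates 1 and 3 and 12 + 12 replicate 1 of cortex).

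The enzymes that rose in the hippocampus were not shown to differ from the other regions. Between corpus callosum and hippocampus 0 members passed for recovery, beside 0.111% of all genes, with 1 member at an unadjusted p below 0.05. Between hippocampus and cortex 0 members passed, beside 5.99% of all genes, with 9 members at an unadjusted p below 0.05, and 1 member passed without cortex 12 + 8 replicate 1 or 3, cortex naive replicate 4 or hippocampal 12 + 12 replicate 2. *Msmo1* rose by 0.59 in hippocampus, beside differences of 0.42 in corpus callosum and 0.51 in cortex. The intervals were wide: for *Msmo1* the recovery effect of the hippocampus minus that of the cortex was 0.08, with a 95% interval of −0.27 to 0.43. Acute and chronic cuprizone were compared in the corpus callosum by the same means, each table against its own naive group. The largest member difference was in *Abca1*, whose effect was 1.14 ± 0.23 at 3 weeks, against 0.35 ± 0.18 at 12 weeks, a difference of 0.79 ± 0.29 (adjusted p = 0.464). In all 0 of 34 members passed, beside 0.072% of 13884 genes, with 2 members and 1033 genes at an unadjusted p below 0.05, and 1 member passed without replicate 1 of 5 + 1 weeks. These paradigms also differ in age and sequencing.

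In the chronic tables the largest differences of members lay between naive regions. *Idi1* had 0.59, 0.34 and 0.35 in corpus callosum and 0.29, 0.20 and 0.22 in hippocampus, against −1.23, −0.94, −1.18 and −1.12 in cortex. The cortex lay below both other regions in every library, by 1.54 ± 0.17 (adjusted p = 1.96e-08) and 1.35 ± 0.17 (adjusted p = 2.22e-07). *Fdps* had 0.65, 0.40 and 0.45 in corpus callosum and 0.05, 0.15 and 0.10 in hippocampus, against −0.82, −0.52, −0.56 and −0.81 in cortex. It was again lowest in cortex, by 1.18 ± 0.13 (adjusted p = 2.41e-08) and 0.78 ± 0.13 (adjusted p = 1.94e-05). Over the 18 enzymes corpus callosum was called higher than cortex in 9 and lower in 1, *Hsd17b7* (−0.37), beside 21.7% of all genes called higher. Among outflow genes it was called higher in *Npc2* (0.71), *Apoe* (0.32) and *Nr1h3* (0.28), and lower in *Soat1* (−0.47) and *Stard4* (−0.42). With *Srebf1* (0.42), 16 of 34 members differed, beside 43.1% of all genes. Hippocampus differed from cortex in 14 members, 7 each way, beside 40.6% of all genes, with *Stard4* the lowest at −0.71 ± 0.13.

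Corpus callosum and hippocampus differed in fewer members. All 18 enzymes lay higher in corpus callosum, with a median of 0.23 beside 0.00 over all genes, and 6 passed: *Pmvk* 0.45, *Hmgcs1* 0.42, *Fdft1* 0.40, *Fdps* 0.40, *Ebp* 0.39 and *Cyp51* 0.31, beside 8.89% of all genes called higher. *Npc1* (0.49), *Npc2* (0.32) and *Nr1h2* (0.32) were higher too. *Mylip* was the one member called lower in corpus callosum, with −0.41, −0.19 and −0.08, against 0.32, 0.30 and 0.27 in hippocampus (−0.52 ± 0.12, adjusted p = 0.00217). In all 10 members differed, beside 17.7% of all genes, and the count was 2 without corpus callosum naive replicate 1, 6 without hippocampal naive replicate 1 or 2, and 4 without the mixed libraries. By the study's methods the cortex was sequenced with shorter reads on another instrument than the other 2 regions, and the differences from cortex followed transcript length (Spearman −0.506 for corpus callosum and −0.419 for hippocampus), so that region and sequencing cannot be told apart there.

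**Figure D5:**
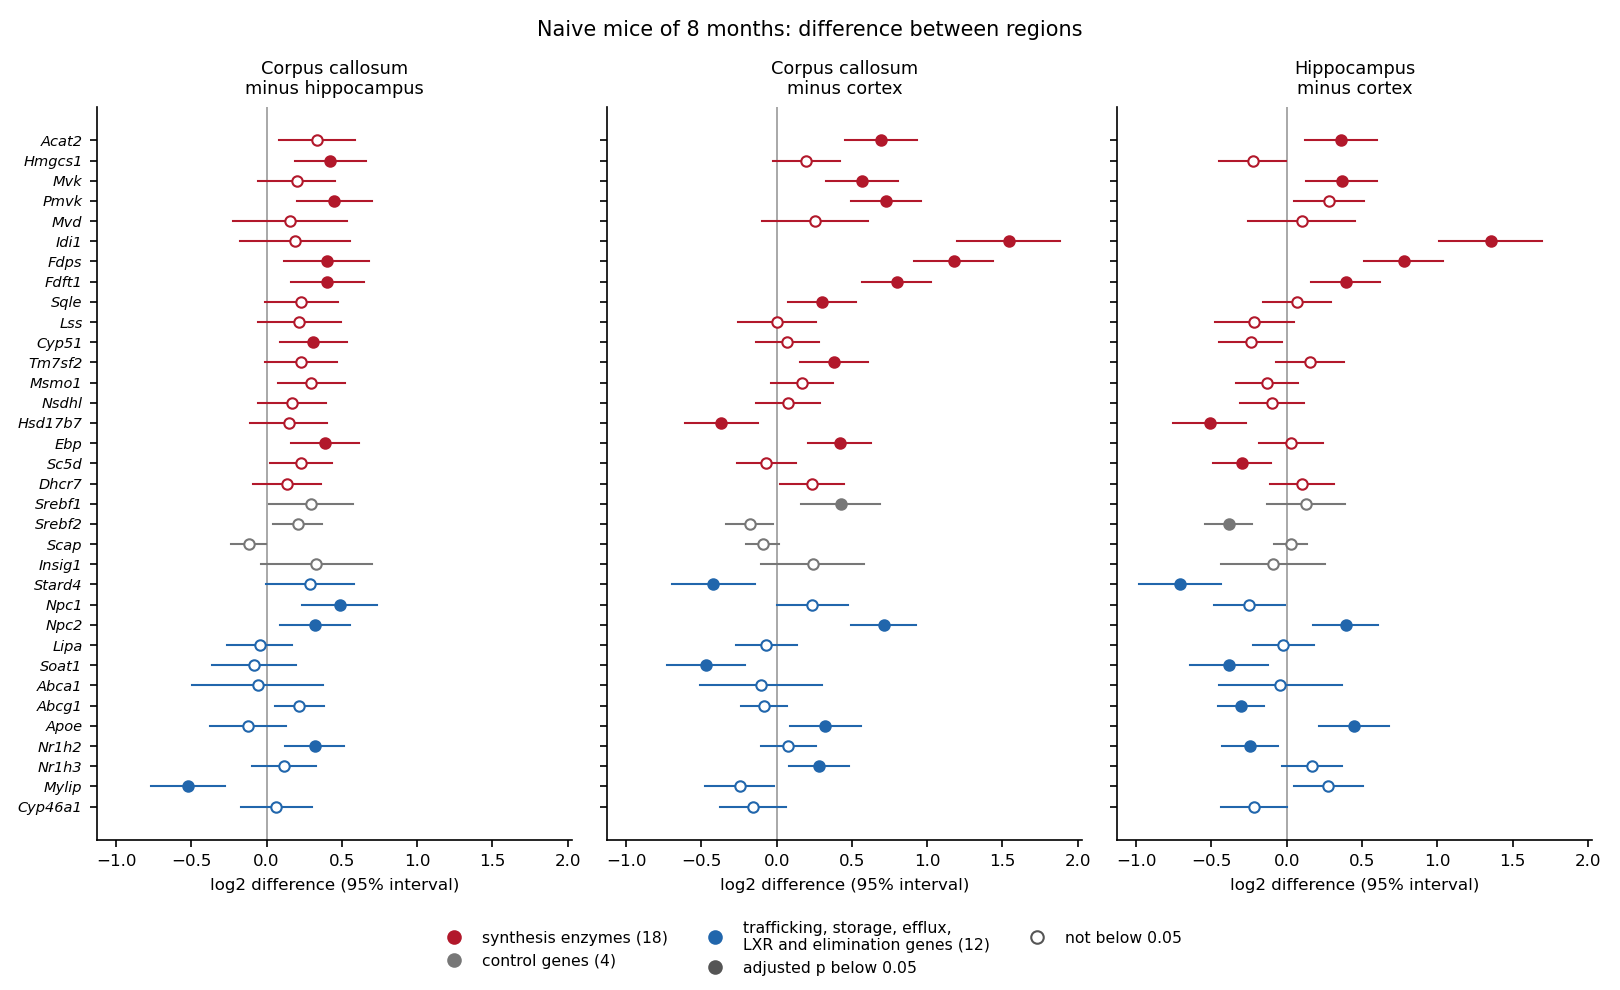
Difference of the naive level between regions (log2 units, with 95% intervals) for the 34 members, with corpus callosum minus hippocampus, corpus callosum minus cortex and hippocampus minus cortex side by side, filled where the adjusted p is below 0.05. *Idi1* lies farthest right in both comparisons with cortex, at 1.54 and 1.35, and the enzymes of corpus callosum minus hippocampus all lie right of zero.

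Further genes of sterol and lipid handling were read from a list of 30 other sterol genes and one of 12 fatty acid synthesis genes. In the hippocampus at 12 + 12 against 12 weeks 8 of the 30 rose, beside 6.53% of all genes, and 2 fell, beside 6.72%. Those that rose included *Apod* 0.95 and *Cyp27a1* 0.66: *Apod* encodes an apolipoprotein of glia and *Cyp27a1* a sterol hydroxylase. *Gramd1b*, a carrier of sterol from the plasma membrane, and *Vldlr*, a lipoprotein receptor, fell by 0.48 and 0.28. *Scd1*, the desaturase of fatty acids, *Me1* and *Acss2*, which supply reducing power and acetyl-CoA, rose by 0.91, 0.35 and 0.32, 3 of 12 in that list. In the corpus callosum at 12 weeks against naive, where 9.98% of all genes were called higher and 9.77% lower, 3 of the 30 rose (*Gramd1b* 1.11, *Abca7* 0.52 and *Lrp1* 0.41) and 2 fell (*Apod* −1.43 and *Cyp27a1* −0.79), while 1 fatty acid gene rose (*Gpam* 0.61) and 2 fell (*Scd1* −0.92 and *Elovl5* −0.49). At 12 + 12 against 12 weeks *Abca2* (0.83), a lipid transporter of oligodendrocytes, and *Scd1* (0.89) rose there, beside 0.446% of all genes called, although 0 members did.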

How the data were processed

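RNA-seq values of 47 libraries were analysed. Per the labels and the study's methods, the authors aligned reads to GRCm38 (mm10) with TopHat2 2.0.13, normalized them with DESeq2 and deposited log2 values, which in the chronic tables they had centred per gene, so that expression levels and counts cannot be recovered. Of the chronic tables, those of corpus callosum and hippocampus had 40.4% to 45.8% of a library's values ending in a 5 at decimal place 10, against 0% in cortex, as means of 2 values would. Whether libraries were averaged is not given in the sources used here, and p-values measure only the spread between the deposited libraries. The labels give 1 instrument and long paired reads for all libraries, whereas the methods give shorter reads on another instrument for the acute and cortex libraries.

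Groups came from the labels, and acute columns from the headers of the study's own table, equal in 1999 of 1999 shared genes (tolerance 0.0001). In each of the 4 files 27 names turned into dates or numbers were left out. Acute genes were kept where their linear mean reached 10, chronic genes with at most 10 of 40 libraries at the gene's lowest value. Each table was fitted with limma 3.58.1 in R 4.3.3, over all its groups and without covariate, with an intensity trend in the acute table. Regions were compared in 1 fit over 40 libraries taken as independent, although libraries of different regions may come from the same mouse. Acute and chronic effects were compared by combining standard errors. A gene was called where its p, adjusted after Benjamini and Hochberg over all tested genes, was below 0.05.

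The members and lists were chosen with earlier results of these data known. All 34 members could be named, and up to 6 called genes of the other lists with the largest differences. Some genes of the other sterol list are counted but not reported here by name. Alternatives covered filters, variance priors, scaling, library weights, the groups fitted, sex, a replicate block, length and GC correction, the label order, the mixed libraries and each library. The fits were tested on simulated data.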

Additional observations from a re-analysis of the deposited data

Results flagged for a closer look

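*Stard4* had a 12-week effect that differed between corpus callosum and cortex by 0.768 log2 units (adjusted p = 0.046, limma), out of 204 tested differences between regions in the 34 genes. In that comparison 2.4% of all genes were called. *Abcg1* had a recovery effect, 12 + 12 against 12 weeks, that differed between the same regions by 0.481 (adjusted p = 0.0375), where 3.88% of all genes were called. In the naive cortex, the only member group of 4 libraries, 1 library lay far from the other 3 in 2 of the 34 genes, and chance alone gives about 1 such gene in 20. *Lss*, lanosterol synthase, was −0.199 in naive cortex replicate 4, against 0.022, 0.022 and 0.053 in the others. *Msmo1* was 0.185 in naive cortex replicate 2, against −0.019, −0.008 and 0.001 in the others.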

How the results depend on the processing

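Counts here are of members called. The counts of 34 comparisons were recomputed 378 times under planned settings, and 314 stayed within 1.5 times their value. With single libraries left out 472 of 557 did. Counts that were 0 and stayed 0 are among these, so the shares do not tell how stable the counts above 0 were. Of 1002 single-gene values under planned settings 814 kept direction and call and 8 turned direction. The cause of each change below was not tested. A stricter filter, another variance prior and centring on the library median moved no count past that limit. The label order of the acute libraries turned the 3-week difference from naive to −0.091 in *Abca1*, −0.193 in *Soat1*, −0.057 in *Mylip* and 0.269 in *Mvd*, and the 5 + 1 difference from 3 weeks to −0.203 in *Apoe* and 0.785 in *Idi1*. It moved the synthesis minus outflow difference to −0.171 for 3 weeks against naive, 0.259 (turned) for 5 + 1 weeks against naive (−0.342) and 0.43 for 5 + 1 against 3 weeks. *Idi1* for 5 + 1 against 3 weeks was 0.058 with library weights, 0.031 with length and GC correction and ranged from −0.808 to 0.074 with 1 library left out, the last without 5 + 1 replicate 1. For 3 weeks against naive (0 called) library weights gave 1, only the groups compared 2 and length and GC correction 1. For 5 + 1 against 3 weeks (0) library weights gave 13 and length and GC correction 1.

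In corpus callosum, 12 weeks against naive (6) gave 2 with only the groups compared and 3 with sex. For 12 + 8 against 12 weeks (0) library weights gave 4 and a joint fit of 40 libraries 2, and for 12 + 12 against 12 weeks (0) quantile normalization gave 2, weights 1 and the joint fit 4. Against naive, only the groups compared gave 0 at 12 + 4 weeks (3), 2 at 12 + 8 weeks (4) and 0 at 12 + 12 weeks (3), length and GC correction gave 1 at 12 + 8 weeks, and the joint fit 6 at 12 + 12 weeks. In hippocampus, weights gave 2 for 12 weeks against naive (0) and 10 for 12 + 4 against 12 weeks (0). For 12 + 8 against 12 weeks (3) quantile normalization, weights, only the groups compared, the joint fit and sex each gave 0. For 12 + 12 against 12 weeks (14) only the groups compared and the joint fit gave 3 each, and leaving out the mixed libraries, which leaves 1 library a group, 0, with *Msmo1* at 0.596. For 12 + 12 weeks against naive (1) weights, only the groups compared, the joint fit, sex and leaving out the mixed libraries each gave 0. In cortex the joint fit gave 2 for 12 weeks against naive (0) and 5 for 12 + 12 against 12 weeks (1), and 12 + 12 against 12 weeks gave 0 with quantile normalization, only the groups compared and sex.

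For effects of 12 weeks, corpus callosum minus hippocampus (0) gave 1 with quantile normalization, 4 with weights and 2 with only the groups compared, and corpus callosum minus cortex (1) gave 0 with no filter, only the groups compared, sex, length and GC correction and without the mixed libraries, and 3 with quantile normalization. For recovery effects, corpus callosum minus cortex (1) gave 2 with quantile normalization, 2 with weights, and 0 with only the groups compared and without the mixed libraries, and hippocampus minus cortex (0) gave 2 with weights and 1 with only the groups compared. At the naive level, corpus callosum minus hippocampus (10) gave 16 with quantile normalization, 16 with weights and 4 without the mixed libraries, and corpus callosum minus cortex (16) gave 10 with weights and 10 with only the groups compared. Acute minus chronic (0) gave 2 with weights, 3 with only the groups compared and 1 with length and GC correction. The synthesis minus outflow difference in hippocampus was −0.146 as a median and −0.149 without the mixed libraries at 12 weeks against naive (−0.074), and 0.346 and 0.308 at 12 + 12 against 12 weeks (0.262).

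Replicate numbers of the labels were not shown to pair libraries: they name no shared animal, and no pair of groups with 3 shared numbers had a correlation above 0.1 at every number. With a replicate block the count became 0 for hippocampus 12 + 8 against 12 weeks, hippocampus 12 + 12 weeks against naive, cortex 12 + 12 against 12 weeks and the 12-week effect of corpus callosum minus cortex. It was 10 for hippocampus 12 + 12 against 12 weeks, and stayed within 1.5 times in the other 30 comparisons.

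Leaving out 1 library at a time gave 0 to 1 for 3 weeks against naive and 0 to 11 for 5 + 1 against 3 weeks. In corpus callosum the range was 1 to 12 for 12 weeks against naive, 0 to 3 for 12 + 12 against 12 weeks, and 0 to 6, 1 to 5 and 2 to 6 for 12 + 4, 12 + 8 and 12 + 12 weeks against naive. In hippocampus it was 0 to 6 for 12 + 8 and 5 to 17 for 12 + 12 against 12 weeks, and 0 to 4 for 12 + 12 weeks against naive. In cortex it was 0 to 1 for 12 + 12 against 12 weeks. It was 2 to 12 for corpus callosum minus hippocampus at the naive level, 0 to 1 and 0 to 4 for corpus callosum minus cortex in the effects of 12 weeks and of recovery, 0 to 1 for hippocampus minus cortex in recovery and 0 to 1 for acute minus chronic. The synthesis minus outflow difference ranged from −0.211 (turned) to 0.322 for corpus callosum 12 + 12 against 12 weeks, from −0.092 to −0.042 and from 0.23 to 0.28 for hippocampus 12 weeks against naive and 12 + 12 against 12 weeks, and from 0.015 to 0.327 for cortex 12 + 12 against 12 weeks. The acute naive library could not be left out, since it is the only one. The depth behind these values is unknown.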
